A study of Mus musculus with 39 samples.

Results

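Glucose uptake and glycolysis were followed through 10 genes in every library of a mouse lymph node immunization study. These are the glucose transporter gene Slc2a1 and 9 enzyme genes, Hk2, Gpi1, Aldoa, Tpi1, Gapdh, Pgk1, Pgam1, Eno1 and Ldha. The genes were chosen by name, with earlier results of these data known. All 10 had a row in each of the 4 deposited tables, which list 24421, 24421, 24411 and 7830 genes. Polyadenylated RNA was captured, amplified linearly by T7 transcription and sequenced in 39 libraries, 33 of dendritic cells (DC) and 6 of CD4+ OT-II T cells, whose transgenic receptor recognizes a peptide of ovalbumin (OVA).

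All mice were C57BL/6 and 8 to 12 weeks old, and cells came from the popliteal and inguinal lymph nodes. Immunized mice had received nanoparticles under the skin of the hock. The particles carried CpG, an agonist of Toll-like receptor 9, and either no protein, OVA or bovine serum albumin (BSA), a protein that OT-II cells do not recognize. A time course of wild-type DC had 5 groups of 2 libraries: non-immunized mice, CpG particles at 12 h or 24 h, and OVA and CpG particles at 12 h or 24 h. A costimulation experiment at 12 h held 2 libraries of each of 4 groups. These were wild-type DC after OVA particles without OT cells, wild-type DC after OVA particles with OT cells, wild-type DC after BSA particles with OT cells, and DC labelled Cd80/86 -/- after OVA particles with OT cells. Its titles do not name CpG, which the series' design text gives for the particles. The 5-replicate experiment, also in wild-type DC, held 5 libraries for each of no immunization, BSA and CpG particles at 20 h and OVA and CpG particles at 20 h. The T cell libraries, 3 after BSA and CpG and 3 after OVA and CpG particles, were taken at 20 h. The design text speaks of mice engrafted with OT-I and OT-II T cells, but the labels of the time course and of the 5-replicate experiment do not say which mice carried them. Whether replicate libraries stem from different animals is not labelled, so p-values measure only the spread between these libraries, which may be technical. In the non-immunized and OVA groups of the 5-replicate experiment, transcripts of the sex chromosomes, given below, differed between libraries of a group.

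Glycolysis breaks glucose down to pyruvate and yields ATP without oxygen. Glucose enters through transporters such as the product of Slc2a1 (GLUT1), hexokinases trap it as glucose 6-phosphate, and lactate dehydrogenase turns pyruvate into lactate and so restores the NAD+ that the pathway consumes. T cells and DC are both known to raise glycolysis when activated, T cells through the transcription factors Myc and HIF-1α, and DC early after a Toll-like receptor signal and later through HIF-1α.

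DC libraries held 612017 to 1329203 counts (time course), 628404 to 1621784 (costimulation) and 367209 to 2052904 (5-replicate experiment). Levels of DC are given below in CPM, a gene's count as a share of the library's total, scaled to 1000000. Where libraries of DC groups are said to lie apart, the share of all genes that did so was not counted. Several of the 10 genes rested on few counts. Over the 33 DC libraries Gapdh, the glyceraldehyde 3-phosphate dehydrogenase gene often used as a reference, had 1 to 13 counts, the mutase gene Pgam1 1 to 24 and the kinase gene Pgk1 2 to 29. Slc2a1 had 4 to 111 and the hexokinase gene Hk2 5 to 50. Ldha, with 68 to 970 counts, the aldolase gene Aldoa, with 81 to 654, the isomerase gene Gpi1, with 86 to 441, and Tpi1, with 32 to 293, were deeper. Gapdh has 77 pseudogene copies in the GENCODE M21 transcripts that match at least 100 bases at 95% identity or more, and 94.1% of its transcript lies in such a copy. Ldha has 5, Pgk1 4 and Eno1 2 such pseudogene copies, Eno1 also has the near-identical gene Eno1b, and Gpi1, Tpi1 and Pgam1 have 1 each. How reads that fit several places were counted is not given in the sources used here, so the levels of these genes, Gapdh above all, are uncertain. No such pseudogene copy was found for Slc2a1, Hk2 or Aldoa.

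The libraries also differed in ways the groups do not name. Summed Y-linked transcripts exceeded 20 CPM in 3 of 5 non-immunized and 2 of 5 OVA libraries of the 5-replicate experiment, in none of its 5 BSA libraries and in no library of the other DC experiments. Xist was at 5.85 to 10.9 CPM in the libraries over 20 CPM. It was at 154.5 to 401.6 CPM in the other non-immunized and OVA libraries of that experiment. The libraries of each of these 2 groups thus did not all come from the same animals. The T cell table holds normalized counts. There Y-linked transcripts summed to 37.1, 63.55 and 41.8 after BSA and to 94.5, 86.7 and 50.0 after OVA particles. In the time course, the 12 neutrophil markers summed to 162 to 210 CPM in non-immunized DC, 14272 to 18143 after CpG at 12 h and 2555 to 2573 after OVA and CpG at 12 h, Mpo and Retnlg being at 0 in the first of these groups. The 14 T cell markers in the table summed to 5858 and 5894 CPM in the non-immunized libraries and to 1761 to 3643 CPM in the immunized ones. The 12 DC markers summed to 2589 and 4272 CPM in the non-immunized libraries and to 3773 to 12769 CPM in the immunized ones. T cell markers thus exceeded DC markers in both non-immunized libraries of the time course, whose label is DC. In the other DC experiments DC markers summed to 5986 CPM or more and T cell markers to 1344 CPM or less. In the libraries labelled Cd80/86 -/-, Cd80 was at 4.23 and 12.4 CPM against 11.4 and 10.0 CPM in wild-type DC with OVA and OT cells, and Cd86 at 37.4 and 48.5 CPM against 81.5 and 82.6 CPM. Transcripts of both genes were thus counted under that label; a read outside the deleted stretch would not show the deletion, so these counts do not check it.

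The time course asks how DC respond to the particles, with and without antigen. At 12 h after OVA and CpG particles 3 of the 8 genes tested rose against non-immunized DC, namely Aldoa, Tpi1 and the enolase gene Eno1, and none fell. After CpG particles 1 of 8, Tpi1, rose and none fell. These calls rested on 2 libraries a group: leaving out any 1 of the 4 libraries compared left 0 or 1 of the 3 genes called after OVA and CpG, and DESeq2 called 1, Aldoa. Over all 9428 genes tested, 13.6% were called (adjusted p under 0.05 in edgeR's quasi-likelihood test, Benjamini-Hochberg) at 12 h after OVA and CpG particles, and 16.3% after CpG particles. All 8 genes tested had a positive fitted log2 fold change in both comparisons, with a median of 0.68 after OVA and CpG and 0.54 after CpG. The medians of all genes were -0.03 and -0.02. The fit scales libraries by trimmed means (TMM), which CPM does not, and the signs rest in part on that scaling. In CPM the mean of Gpi1 lay below that of non-immunized DC in both 12 h groups. Those of Slc2a1 and Ldha lay below it at 12 h after CpG. The 2 comparisons share their non-immunized libraries. The neutrophil sums given above were higher in both 12 h groups than in non-immunized DC, and lower after OVA and CpG than after CpG. In these bulk samples, a change in the mix of sorted cells and a change in RNA per cell cannot be told apart.

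**Figure D1:**
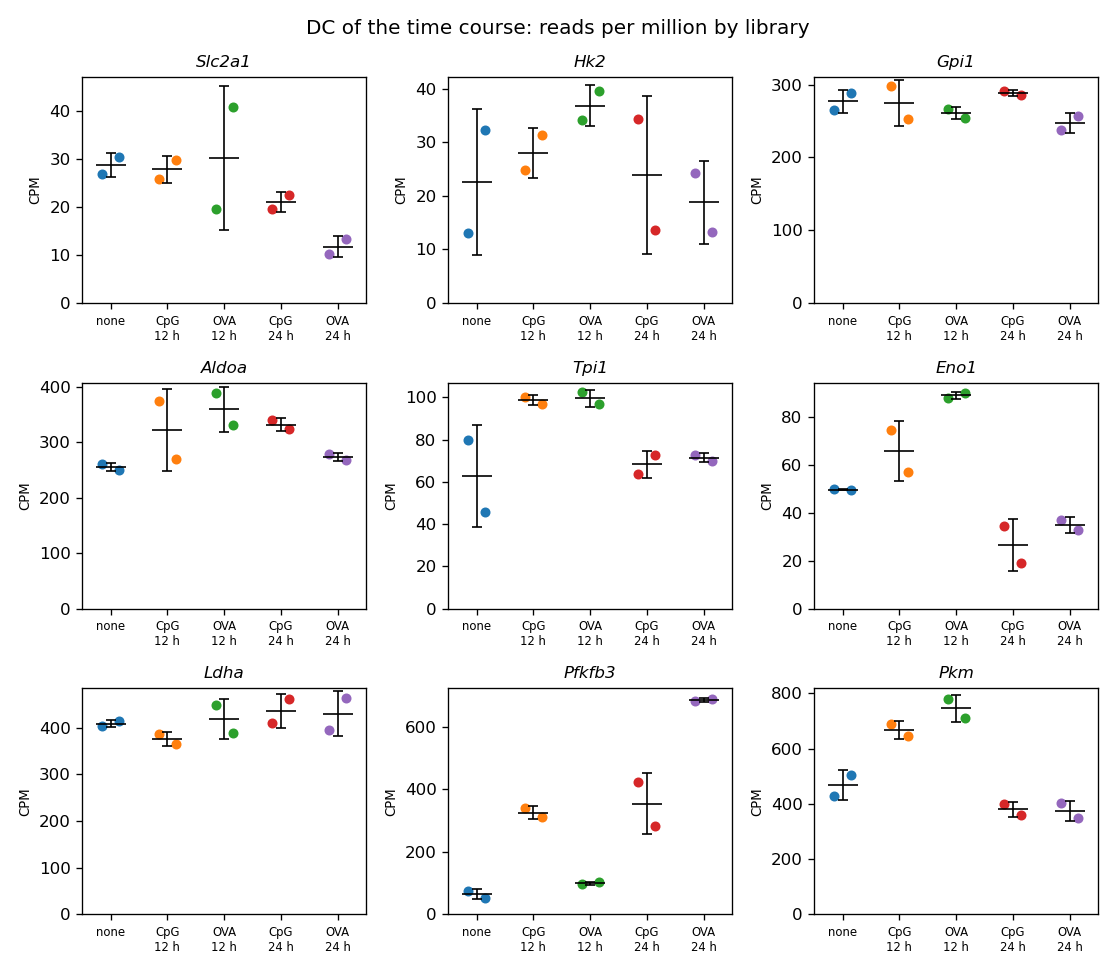
Levels of 7 of the 10 genes and of Pfkfb3 and Pkm in the time course, in CPM on linear axes from 0, for 2 libraries of each of 5 groups (none: non-immunized). Points are libraries, long lines are means and error bars are SD. Eno1 is highest at 12 h after OVA and CpG particles and lowest at 24 h after CpG particles, Gpi1 stays between 238 and 298 CPM, and Pfkfb3 is highest at 24 h after OVA and CpG particles.

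Eno1 codes for enolase 1, which makes phosphoenolpyruvate. It was at 49.7 and 49.4 CPM in non-immunized DC, 74.4 and 56.7 CPM at 12 h after CpG, 87.9 and 89.9 CPM at 12 h after OVA and CpG, 34.3 and 18.8 CPM at 24 h after CpG, and 37.1 and 32.6 CPM at 24 h after OVA and CpG. Every 12 h library thus lay above every non-immunized library, and every 24 h library below. The log2 fold change of Eno1 against non-immunized DC was 1.07 ± 0.26 (SE) at 12 h after OVA and CpG (edgeR adjusted p = 0.0109) and 0.63 ± 0.27 at 12 h after CpG (adjusted p = 0.138). The call of Eno1 after OVA and CpG at 12 h was lost in 5 of 8 alternatives, with log2 fold changes of 1.05 to 1.11: in DESeq2 (adjusted p = 0.0577) and, in edgeR, without the first or the second non-immunized library (adjusted p = 0.0860 and 0.108) and without the first or the second library of its own group (adjusted p = 0.0724 and 0.0532). Eno1 was also the 1 gene of the 8 that changed between 12 h and 24 h. It fell by 1.43 ± 0.31 on the log2 scale after CpG (edgeR adjusted p = 0.00877, 7.63% of genes called) and by 1.36 ± 0.28 after OVA and CpG (adjusted p = 0.00589, 8.90% of genes called). The near-identical gene Eno1b had its group means in the same order as Eno1. It was at 92.2 and 84.4 CPM in non-immunized DC, 118 and 119 CPM at 12 h after CpG, 145 and 153 CPM at 12 h after OVA and CpG, and 48.2 to 57.6 CPM in the 4 libraries of 24 h. Monocyte and macrophage markers (13, none at 0) moved with Eno1 between the times: they summed to 2558 to 3043 CPM in the non-immunized and 12 h libraries and to 867 to 1158 CPM in the 24 h libraries. Their part in the fall of Eno1 was not tested. Without the second library of CpG at 24 h the difference between times after CpG was -0.96 (edgeR adjusted p = 0.148), and without the first of CpG at 12 h it was -1.24 (adjusted p = 0.0916). Without the second library of OVA and CpG at 24 h, that after OVA and CpG was -1.21 (adjusted p = 0.0663).

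Tpi1, whose enzyme interconverts the triose phosphates that aldolase makes, was at 79.9 and 45.8 CPM in non-immunized DC, 100.3 and 97.0 CPM at 12 h after CpG, and 103 and 96.8 CPM at 12 h after OVA and CpG. At 24 h its levels were 63.7 and 73.0 CPM after CpG and 72.9 and 70.1 CPM after OVA and CpG. The 12 h libraries lay close together and above both non-immunized libraries, which themselves lay far apart. Its log2 fold change at 12 h was 0.86 ± 0.25 after CpG (edgeR adjusted p = 0.0276) and 0.89 ± 0.25 after OVA and CpG (adjusted p = 0.0241). Without the second non-immunized library, in which Tpi1 was lowest, it was 0.50 (edgeR adjusted p = 0.326) and 0.54 (adjusted p = 0.306). Both calls of Tpi1 were lost in 4 of 8 alternatives. For CpG the others were DESeq2 (0.88, adjusted p = 0.101) and leaving out the first or the second CpG library (0.87 and 0.91, edgeR adjusted p = 0.108 and 0.0895). For OVA and CpG they were DESeq2 (0.92, adjusted p = 0.0856) and leaving out the first or the second OVA library (0.86 and 0.93, edgeR adjusted p = 0.146 and 0.0726).

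Aldoa, which codes for the aldolase that splits fructose 1,6-bisphosphate, was at 260.1 and 250.5 CPM in non-immunized DC and above both values in each of the 8 immunized libraries. Its levels were 375 and 270.1 CPM at 12 h after CpG, 388 and 331 CPM at 12 h after OVA and CpG, 339.9 and 324 CPM at 24 h after CpG, and 279 and 268 CPM at 24 h after OVA and CpG. Its log2 fold change against non-immunized DC was 0.73 ± 0.19 at 12 h after OVA and CpG (edgeR adjusted p = 0.0189), 0.56 ± 0.19 at 12 h after CpG (adjusted p = 0.0620), 0.58 ± 0.19 at 24 h after CpG (adjusted p = 0.0687) and 0.32 ± 0.19 at 24 h after OVA and CpG (adjusted p = 0.326). The first of these passed the test. Its call was lost without the first or the second non-immunized library (0.77 and 0.69, edgeR adjusted p = 0.105 and 0.161) and without the first OVA library (0.62, adjusted p = 0.165). Without the second CpG library of 12 h, Aldoa was called after CpG at 12 h (0.81, adjusted p = 0.0324).

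Slc2a1, Gpi1 and Ldha were not called. Slc2a1 was at 26.9 and 30.5 CPM in non-immunized DC, 25.9 and 29.9 CPM at 12 h after CpG, 19.5 and 40.9 CPM at 12 h after OVA and CpG, 19.6 and 22.6 CPM at 24 h after CpG, and 10.2 and 13.3 CPM at 24 h after OVA and CpG. Both libraries of the last group lay below all 8 others. The difference of that group from non-immunized DC was -1.06 ± 0.42 on the log2 scale (edgeR adjusted p = 0.113) and from 12 h -1.30 ± 0.43 (adjusted p = 0.0723), which do not pass the test. Slc2a1 passed in the comparison of 24 h with 12 h without the filter on low counts (-1.36, edgeR adjusted p = 0.0336) and without the first OVA library of 12 h (-1.81, adjusted p = 0.0284). Ldha, at 366 to 464 CPM in all 10 libraries, had log2 fold changes between 0.10 and 0.30 against non-immunized DC, with no adjusted p under 0.307. At 12 h after CpG its 2 libraries lay below both non-immunized ones in CPM, at 387 and 366 against 403 and 413, while its fitted fold change of 0.10 ± 0.17, which scales libraries by trimmed means (TMM), was positive. Gpi1, the second enzyme of the pathway, ranged from 238 to 298 CPM. Its fitted log2 fold changes against non-immunized DC lay between 0.05 and 0.26, while its mean in CPM exceeded that of non-immunized DC only at 24 h after CpG.

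Hk2 codes for the inducible hexokinase 2. It was at 13.1 and 32.3 CPM in non-immunized DC, 24.8 and 31.3 CPM at 12 h after CpG, 34.2 and 39.5 CPM at 12 h after OVA and CpG, 34.3 and 13.5 CPM at 24 h after CpG, and 24.3 and 13.3 CPM at 24 h after OVA and CpG. Both OVA and CpG libraries of 12 h lay above the non-immunized ones, with a log2 fold change of 0.93 ± 0.45 that did not pass the test (edgeR adjusted p = 0.196). Pgk1 had 2 to 18 counts in these 10 libraries and no comparison of it passed. Gapdh, with 2 to 11 counts, and Pgam1, with 1 to 9, did not pass the filter on low counts. At 24 h 0 of 8 genes were called against non-immunized DC after CpG, where 11.0% of all genes were, or after OVA and CpG, where 14.1% were. At an unadjusted p under 0.05 there were 2 and 1, and DESeq2 also called 0 in both. Without the first CpG library of 24 h Eno1 was called lower there (-1.22, edgeR adjusted p = 0.0181).

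Adding OVA to the particles moved none of the 8 genes past the test. At 12 h 0 were called (2.46% of all genes were), at 24 h 0 (0% of all genes), and 0 for the difference between the times (3.38% of all genes). None had an unadjusted p under 0.05 in edgeR in these 3 comparisons, and DESeq2 called 0 in each. For Eno1 the difference between OVA and CpG particles at 24 h minus that at 12 h was 0.07 ± 0.41 on the log2 scale.

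Beside the 10 genes, called enzymes and transporters were higher at 12 h than in non-immunized DC, and called regulators went both ways. Of 9 other glycolysis enzymes tested, 3 rose and 0 fell at 12 h after OVA and CpG and 4 rose and 0 fell at 12 h after CpG. Pkm, the pyruvate kinase gene, rose in both, by 0.91 ± 0.18 and 0.73 ± 0.18 on the log2 scale (edgeR adjusted p = 0.00279 and 0.0102). Hk3, a hexokinase gene of myeloid cells, was 3.03 and 2.55 higher (adjusted p = 4.05e-04 and 0.00206), beside the neutrophil markers given above, whose part was not tested. Of 4 other transporters 2 rose in both comparisons, the glucose transporter Slc2a6, by 2.08 and 2.15, and the lactate exporter Slc16a3, by 1.18 and 1.09. The pentose phosphate pathway, a branch from glucose 6-phosphate that yields NADPH, had 3 of 7 genes higher and 0 lower in both, Pgd, Taldo1 and G6pdx. Of 24 genes of pyruvate entry and the citrate cycle, 0 changed after OVA and CpG at 12 h and 1, Sdhd, rose after CpG. Of 10 regulators 2 rose and 1 fell at 12 h after OVA and CpG, and 2 rose and 2 fell at 12 h after CpG. Hif1a, which codes for the oxygen-regulated subunit of HIF-1, rose by 1.14 at 12 h after OVA and CpG (edgeR adjusted p = 0.00319) and by 0.95 and 0.84 at 24 h after CpG and after OVA and CpG (adjusted p = 0.0140 and 0.0262). Pfkfb3 rose in both 12 h comparisons, by 0.85 after OVA and CpG (adjusted p = 0.0318) and 2.56 after CpG (adjusted p = 4.51e-06). Txnip, which restrains glucose uptake, fell in both, by 0.70 and 0.75 (adjusted p = 0.0363 and 0.0226). After CpG the pyruvate dehydrogenase kinase genes Pdk1 and Pdk3 were called too, at -1.43 and 0.99 (adjusted p = 0.0324 and 0.0447). Of 12 other genes known to respond to hypoxia 3 fell and 0 rose at 12 h after OVA and CpG, namely Ddit4, Egln1 and Kdm3a, and 1 rose (Adm) and 1 fell (Ddit4) at 12 h after CpG.

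Some genes beside the 10 differed between particles with and without OVA. Of 9 other glycolysis enzymes 1 was higher and 2 were lower with OVA at 12 h, and of 10 regulators 1, Pfkfb3, was lower. Hk1, the hexokinase gene of most tissues, was the higher one, at 169 and 162 CPM with OVA against 107 and 71.6 CPM without (log2 difference 0.89, edgeR adjusted p = 0.0409). Pfkfb3, whose enzyme makes the fructose 2,6-bisphosphate that drives phosphofructokinase, was at 75.0 and 53.0 CPM in non-immunized DC, 341 and 310.4 CPM at 12 h after CpG, 423 and 284 CPM at 24 h after CpG, 96.1 and 102 CPM at 12 h after OVA and CpG, and 682 and 689.8 CPM at 24 h after OVA and CpG. The neuronal enolase gene Eno2 was at 28.5 and 9.88 CPM in non-immunized DC, 64.2 and 68.6 CPM at 12 h after CpG, 31.0 and 34.6 CPM at 24 h after CpG, 17.9 and 13.6 CPM at 12 h after OVA and CpG, and 83.2 and 79.7 CPM at 24 h after OVA and CpG. Pfkfb3 and Eno2, and the muscle enolase gene Eno3, were lower with OVA than without at 12 h, with log2 differences of -1.71 for Pfkfb3 (edgeR adjusted p = 0.00123), -2.02 for Eno2 (adjusted p = 0.00974) and -1.89 for Eno3 (adjusted p = 0.00434). The change of this difference from 12 h to 24 h was 2.69 for Pfkfb3 (edgeR adjusted p = 1.69e-04), 3.33 for Eno2 (adjusted p = 0.00133) and 2.76 for Eno3 (adjusted p = 0.0016). Summed markers of migratory DC, which reach the node from the skin, moved with these 3 genes: 475 to 693 CPM in non-immunized DC, 2752 to 2982 at 12 h and 1838 to 2471 at 24 h after CpG, and 796 to 969 at 12 h and 3684 to 4645 at 24 h after OVA and CpG. Neutrophil markers moved in the same direction in the comparisons of particles with and without OVA. Of 8 tested, 5 were lower with OVA at 12 h and 0 higher, and for the change from 12 h to 24 h 6 were higher and 0 lower. Over the groups their sums did not move with the 3 genes: 14272 to 18143 CPM at 12 h and 104 to 864 at 24 h after CpG, and 2555 to 2573 at 12 h and 453 to 2626 at 24 h after OVA and CpG. The part of either was not tested. Eno1 and Eno2 thus differed in their order of groups, with the highest mean of Eno1 and the lowest mean of Eno2 both at 12 h after OVA and CpG.

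The costimulation experiment asks whether antigen-specific T cells, cognate antigen and the costimulatory ligands CD80 and CD86 alter DC at 12 h. None of the 9 genes tested passed in any of its 3 comparisons. For OVA with against without OT cells 2.60% of all genes were called, for OVA against BSA with OT cells 0.0107%, and for the libraries labelled Cd80/86 -/- against wild type 0%. Unadjusted p under 0.05 occurred for 1 gene in the first comparison, 0 in the second and 1 in the third, Ldha in both cases, and DESeq2 called 0 in each.

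**Figure D2:**
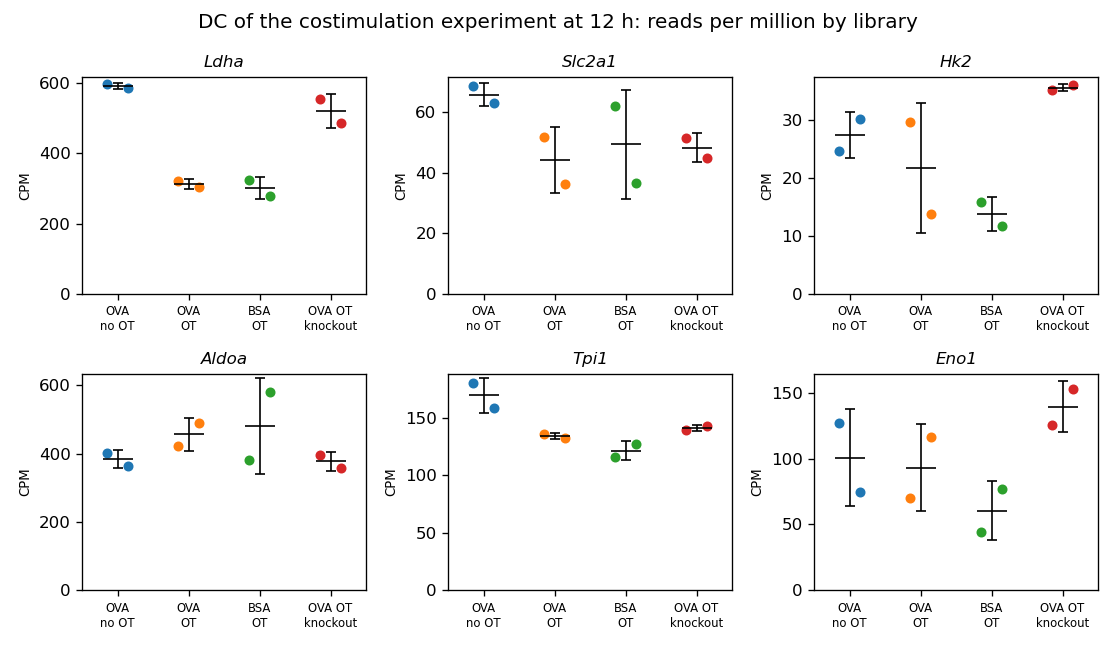
Levels in the costimulation experiment at 12 h, in CPM on linear axes from 0, for 2 libraries of each of 4 groups (OVA OT knockout: the libraries labelled Cd80/86 -/-). Points are libraries, long lines are means and error bars are SD. Ldha, not called in any comparison, lies between 486 and 598 CPM in DC without OT cells and in DC labelled Cd80/86 -/-. It lies between 279 and 323 CPM in wild-type DC with OT cells and either protein.

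Ldha, the gene of the lactate dehydrogenase A subunit, was not called in any of the 3 comparisons, but its levels lay in 2 ranges. It was at 598 and 585 CPM in DC without OT cells and at 555 and 486 CPM in DC labelled Cd80/86 -/- with OT cells. In wild-type DC with OT cells it was at 322 and 303 CPM after OVA and at 323 and 279 CPM after BSA. The first 4 libraries did not overlap the other 4, a split that crosses the groups compared and was picked after seeing the levels of Ldha. The share of all genes that split the libraries in this way was not counted, so no weight can be given to it. The log2 difference of Ldha with against without OT cells was -0.86 ± 0.27 (edgeR adjusted p = 0.122), that of the label Cd80/86 -/- against wild type was 0.67 ± 0.27 (adjusted p = 0.404), and both comparisons share the wild-type OVA and OT libraries. Monocyte and macrophage markers moved with Ldha: they summed to 5639 to 11812 CPM without OT cells and 7910 to 9625 CPM under the Cd80/86 -/- label, against 4978 to 5002 CPM in wild-type DC with OVA and OT cells and 3670 to 5892 CPM with BSA and OT cells. NK cell markers summed to 2484 to 6608 CPM without OT cells and to 41.3 to 228 CPM in the 3 other groups, and DC markers to 5986 to 10703 CPM without OT cells and 12469 to 25659.7 CPM in the others. The part of each was not tested.

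Eno1 was at 127 and 74.7 CPM without OT cells, 70.1 and 116 CPM with OVA and OT cells, 44.6 and 76.6 CPM with BSA and OT cells, and 126 and 153 CPM under the Cd80/86 -/- label. The ranges of the wild-type groups overlapped here, and the log2 difference of OVA against BSA was 0.69 ± 0.39 (edgeR adjusted p = 0.646). Hk2 was at 29.7 and 13.8 CPM with OVA and OT cells against 15.9 and 11.8 CPM with BSA and OT cells, which overlap, with a log2 difference of 0.79 ± 0.45 (adjusted p = 0.648). It was at 24.7 and 30.3 CPM without OT cells and at 35.3 and 36.1 CPM under the Cd80/86 -/- label, the highest of the 8 libraries (0.60 ± 0.39 against wild type, adjusted p = 0.573). Slc2a1 was at 68.4 and 63.0 CPM without OT cells, 51.8 and 36.3 CPM with OVA and OT cells, 62.1 and 36.6 CPM with BSA and OT cells, and 51.5 and 44.8 CPM under the Cd80/86 -/- label. Its libraries without OT cells were the highest of the 8, at a log2 difference of OVA with against without OT cells of -0.50 ± 0.33 (adjusted p = 0.488). Tpi1 was likewise highest without OT cells, at 181 and 159 CPM, and lay between 116 and 143 CPM elsewhere.

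Aldoa was at 403 and 366 CPM without OT cells, 423 and 491 CPM with OVA and OT cells, 382 and 580.0 CPM with BSA and OT cells, and 397 and 358 CPM under the Cd80/86 -/- label. Its second BSA library was the highest of the 8. Gpi1 ranged from 183 to 274 CPM, Pgk1 from 10.6 to 36.1 CPM and Pgam1 from 6.37 to 28.3 CPM, and none was called. Gapdh, at 2 to 12 counts, did not pass the filter. Among 11 other glycolysis enzymes 1 changed in these comparisons, Eno2, which was at 30.2 and 42.8 CPM without OT cells and at 177 and 213 CPM with OVA and OT cells (log2 difference 2.49, edgeR adjusted p = 0.0167). Eno2 was at 156 and 66.0 CPM with BSA and OT cells. The hypoxia-responsive gene Adm was also called higher for OVA with against without OT cells (2.26, edgeR adjusted p = 0.0454). Migratory DC markers again moved with Eno2, from 1424 to 2674 CPM without OT cells to 5990 to 7277 CPM with OVA and OT cells, and their part was not tested.

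At 20 h, in the experiment with 5 libraries a group, Aldoa was the 1 gene of 7 tested that changed against non-immunized DC. It rose after OVA and CpG particles by 0.52 ± 0.15 on the log2 scale (edgeR adjusted p = 0.0185, 15.6% of all genes called) and after BSA and CpG particles by 0.53 ± 0.15 (adjusted p = 0.0349, 5.45% of all genes called). Aldoa was at 218, 182, 221, 233 and 201 CPM in non-immunized DC, 297, 254, 278, 263 and 286 CPM after BSA, and 259, 199.5, 295, 264 and 335 CPM after OVA. All 5 BSA libraries and 4 of 5 OVA libraries lay above every non-immunized library. How many of all genes did so was not counted, so this separation carries no weight of its own. The 2 comparisons share their non-immunized libraries, and OVA against BSA gave 0 of 7 genes called by edgeR or DESeq2 (0% of all genes, and 0 of the 7 at an unadjusted p under 0.05), with -0.02 ± 0.14 for Aldoa.

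**Figure D3:**
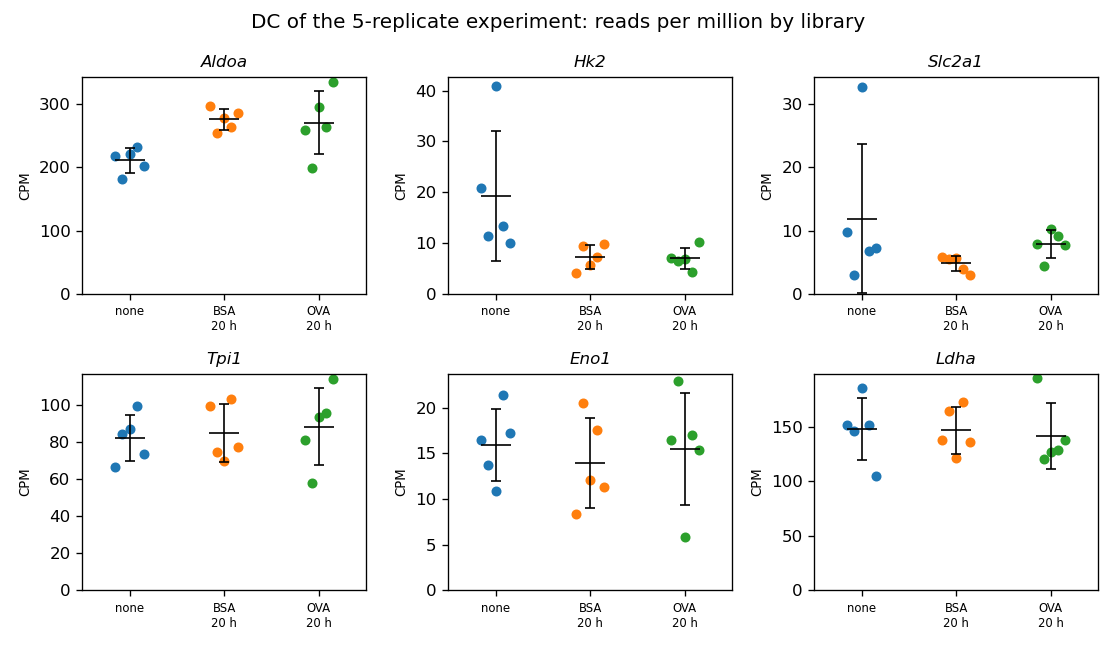
Levels of 6 of the 10 genes at 20 h, in CPM on linear axes from 0, for 5 libraries of each of 3 groups (none: non-immunized). Points are libraries, long lines are means and error bars are SD. Aldoa lies between 182 and 233 CPM in non-immunized DC and between 254 and 297 CPM after BSA, and 1 non-immunized library stands apart for Slc2a1 at 32.7 CPM.

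The Aldoa calls were sensitive to the libraries. With a term for Y-linked transcripts, a choice made after seeing the data, the log2 fold change of Aldoa was 0.52 after OVA (edgeR adjusted p = 0.0239) and 0.53 after BSA (adjusted p = 0.114). The call after OVA was lost without the second non-immunized library (0.45, adjusted p = 0.0595) and without the fifth OVA library (0.38, adjusted p = 0.0794). The call after BSA was lost in 9 of 15 alternatives, among them leaving out the first, the second, the fourth or the fifth non-immunized library alone. The 2 non-immunized libraries under 20 CPM of Y-linked transcripts, at 6.71 and 5.96 CPM, had 233 and 201 CPM of Aldoa.

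Hk2 was at 20.8, 11.4, 40.9, 13.4 and 9.94 CPM in non-immunized DC, 4.16, 9.45, 5.73, 7.16 and 9.84 CPM after BSA, and 7.07, 6.54, 6.82, 4.25 and 10.2 CPM after OVA. All 5 BSA libraries lay below every non-immunized one, if narrowly, and 4 of 5 OVA libraries did. The share of all genes with such a separation was not counted here either. The log2 difference of Hk2 from non-immunized DC was -1.06 ± 0.37 after OVA (edgeR adjusted p = 0.0548) and -1.04 ± 0.37 after BSA (adjusted p = 0.111), so neither passed. After OVA Hk2 passed without the filter on low counts (-1.05, edgeR adjusted p = 0.0495), without the second or the fifth non-immunized library (-1.21 and -1.26, adjusted p = 0.0475 and 0.0315) and without the fifth OVA library (-1.30, adjusted p = 0.0343). Monocyte and macrophage markers summed to 738 to 2356 CPM in non-immunized DC, 228 to 383 after BSA and 152 to 330 after OVA, and migratory DC markers to 8121 to 13797, 10726 to 17039 and 13326 to 21129 CPM. Their part in the levels of Aldoa and Hk2 was not tested.

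Ldha was at 151, 146, 185, 151 and 105 CPM in non-immunized DC, 138, 165, 121, 173 and 135 CPM after BSA, and 194, 119.9, 127, 128 and 138 CPM after OVA. Its 3 groups overlapped, and its mean in CPM was highest in non-immunized DC. Its fitted log2 differences from non-immunized DC, which use the TMM scaling, were 0.11 ± 0.17 after OVA and 0.14 ± 0.17 after BSA. Tpi1, between 57.8 and 114 CPM, Gpi1, between 147 and 269 CPM, and Eno1, between 5.85 and 22.9 CPM, overlapped too. Slc2a1 was at 9.85, 3.04, 32.7, 6.71 and 7.29 CPM in non-immunized DC, 5.82, 5.51, 5.73, 3.98 and 3.03 CPM after BSA, and 7.86, 4.36, 10.2, 9.21 and 7.66 CPM after OVA. Gapdh, Pgk1 and Pgam1, with 1 to 16 counts a library, did not pass the filter.

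Other genes of the pathway added some calls at 20 h after OVA. Of 9 other glycolysis enzymes 2 rose and 0 fell, Hk1 by 0.63 and Pkm by 0.44 on the log2 scale (edgeR adjusted p = 0.0184 and 0.0314). Of 3 other transporters 2 rose, Slc2a6 by 0.61 and Slc16a3 by 0.77 (adjusted p = 0.0136 and 0.0322). Of 10 regulators 1 fell and 0 rose after each protein, Txnip, with log2 differences of -0.97 after OVA (adjusted p = 0.00132) and -0.75 after BSA (adjusted p = 0.0200). No other glycolysis enzyme (0 of 9) or transporter (0 of 3) was called after BSA.

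OT-II T cells were compared 20 h after particles with their antigen, OVA, or with BSA. Here the levels are the authors' normalized counts. Tpi1, Hk2 and Ldha rose with OVA, 3 of the 7 genes tested, and none fell; of all 6452 genes tested 15.9% were called (limma with trend on log2 of the normalized count plus 1, Benjamini-Hochberg adjusted p under 0.05). The median log2 fold change was 1.33 over the 7 genes, the value of Slc2a1 itself, and 0.04 over all genes. Hk2 and Slc2a1 passed the filter on low values (10 normalized counts in 3 libraries) only through the OVA libraries, in which they were higher. The count and the median thus rest in part on genes that the filter let in through the higher group. Counting all 10 genes, in 7 every OVA library lay above every BSA library, and in none below. Of all 7830 genes listed for T cells, 19.3% lay above in this way and 14.9% below. The recovered reads ranged from 423594 to 1316341 in the OVA libraries and from 155088 to 402391 in the BSA libraries, so that depth and particle cannot be told apart.

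**Figure D4:**
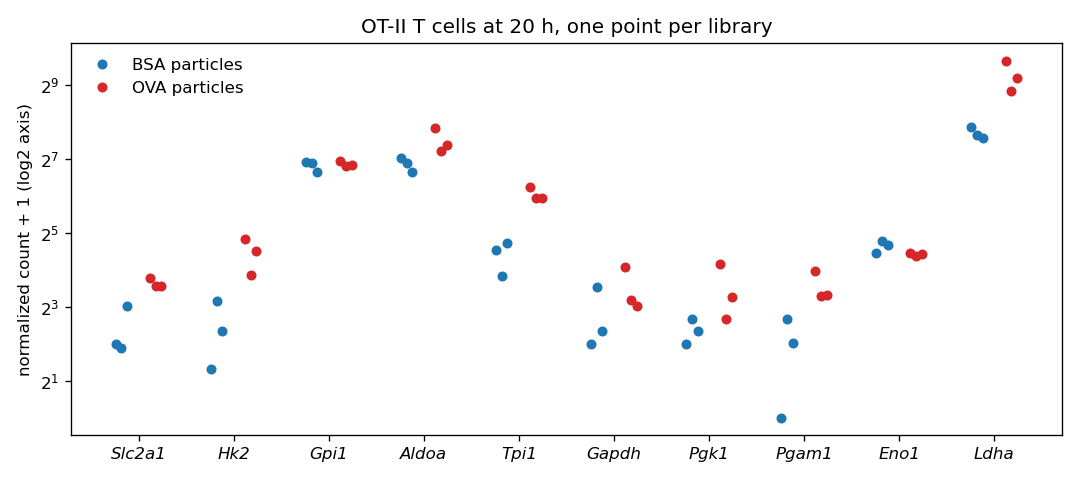
Normalized count plus 1 of the 10 genes in OT-II T cells at 20 h, on a log2 axis, for 3 libraries after BSA particles and 3 after OVA particles, with 1 point a library. Ldha lies between 188 and 230 normalized counts after BSA and between 452 and 797 after OVA, while the points of Gpi1 and Eno1 overlap.

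Ldha was at 229.9, 199 and 188 normalized counts after BSA and at 797, 452 and 576 after OVA. The lowest OVA library was well above the highest BSA library, and the log2 fold change was 1.53 ± 0.21 (limma adjusted p = 0.00277). Tpi1 was at 22.3, 13.2 and 25.5 normalized counts after BSA and at 74.5, 60.5 and 59.6 after OVA, again without overlap, with a log2 fold change of 1.67 ± 0.29 (adjusted p = 0.00526). The calls of Ldha and Tpi1 held in all 12 alternatives run, with log2 fold changes of 1.31 to 1.72 and 1.40 to 1.85.

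Hk2 was at 1.48, 7.94 and 4.08 normalized counts after BSA, which stand for 1 to 4 reads, and at 27.3, 13.4 and 21.6 after OVA. Its log2 fold change was 2.12 ± 0.55 (limma adjusted p = 0.0242) on the log2(normalized count + 1) scale, which understates changes of low genes. The call of Hk2 was lost without the first BSA library (1.64, limma adjusted p = 0.0510) and without the third (2.15, adjusted p = 0.0578). Leaving out any 1 of the OVA libraries took Hk2 below the filter, so it was not tested there. Slc2a1 was at 2.97, 2.65 and 7.13 normalized counts after BSA and at 12.6, 10.8 and 10.8 after OVA, without overlap, at 1.33 ± 0.57 (adjusted p = 0.127). Aldoa was at 129, 117 and 97.8 normalized counts after BSA and at 224, 146 and 164 after OVA, also without overlap, at 0.62 ± 0.22 (adjusted p = 0.0736). Neither passed the test, though Aldoa did without the second OVA library (0.75, limma adjusted p = 0.0272).

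Gpi1 and Eno1 were not called. Gpi1 was at 119, 117 and 98.8 normalized counts after BSA and at 121, 111 and 113 after OVA, a log2 difference of 0.05 ± 0.20 (limma adjusted p = 0.880). Eno1 was at 20.8, 26.5 and 24.5 normalized counts after BSA and at 21.0, 19.5 and 20.4 after OVA, a log2 difference of -0.22 ± 0.27 (adjusted p = 0.603). Their ranges overlapped between the particles. Gapdh, Pgk1 and Pgam1 did not pass the filter on low values. Pgam1 was at 0, 5.30 and 3.06 normalized counts after BSA and at 14.7, 8.74 and 8.96 after OVA, Pgk1 at 2.97, 5.30 and 4.08 against 16.8, 5.38 and 8.65, and Gapdh at 2.97, 10.6 and 4.08 against 15.7, 8.07 and 7.10. The first 2 did not overlap, and tested without the filter their log2 differences were 1.97 ± 0.75 for Pgam1 (limma adjusted p = 0.0995) and 1.04 ± 0.57 for Pgk1 (adjusted p = 0.244).

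Beside the 10 genes, Pkm rose by 1.35 on the log2 scale (limma adjusted p = 0.0048), the 1 of 6 other glycolysis enzymes tested that was called. It was at 191, 146 and 199 normalized counts after BSA and at 622, 343 and 437 after OVA. Of 8 regulators 1 rose and 2 fell. Myc, a transcription factor that acts on many glycolysis genes, was at 38.6, 23.8 and 25.5 normalized counts after BSA and at 191, 106 and 128 after OVA (2.22, adjusted p = 0.0026). Txnip was at 218, 169.5 and 151 after BSA and at 50.4, 91.4 and 69.2 after OVA (-1.36, adjusted p = 0.00635), and the pyruvate dehydrogenase kinase gene Pdk1 differed by -1.16 (adjusted p = 0.0119). Hif1a, at 16.3, 34.4 and 19.4 normalized counts after BSA and 44.1, 30.2 and 45.4 after OVA, overlapped and was not called.

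The other hypoxia-responsive genes split in T cells. Of 8 tested, 2 rose, the cytokine gene Mif (2.07, limma adjusted p = 0.00162) and the transcription factor gene Bhlhe40 (1.80, adjusted p = 0.0435), and 2 fell, Ddit4, an inhibitor of mTORC1 (-1.46, adjusted p = 0.00901), and the mitophagy gene Bnip3l (-1.36, adjusted p = 0.0178). Of 7 pentose phosphate genes 1 rose (Tkt, 1.17), of 21 genes of pyruvate entry and the citrate cycle 2 rose (Mdh2, 0.83, and Idh3a, 0.83), and 0 fell in either list. All 3 cell cycle genes tested rose. DC markers summed to 3100.0, 2354 and 2551 normalized counts in the first, second and last BSA library and to 587, 2811 and 1689 in the OVA libraries, and the 14 T cell markers to 2467 to 2847 and 2063 to 2384. The 6 DC markers in the table thus summed to more than the T cell markers in the first BSA and the second OVA library, although all 6 libraries are labelled T cells; their part in the results was not tested. Without the first OVA library, in which DC markers were lowest and Ldha highest, the log2 fold change of Ldha was 1.31 (adjusted p = 0.00446) and that of Tpi1 1.57 (adjusted p = 0.0156). Xist was at 87.5 to 98.0 normalized counts after BSA and at 2.02 to 50.0 after OVA, without overlap. The level of Xist and the particle thus cannot be told apart in these libraries, and a link of Xist to the 10 genes was not tested.

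The promoters of the genes that rose in T cells and of 1 that did not are shown, since Myc and HIF-1α, the factors named above, bind short cores in such stretches. HIF-1 binds around the core ACGTG or GCGTG, and Myc binds the E-box CACGTG, which contains ACGTG on both strands. Each line gives the 250 bases before a start site, 5′ to 3′ on the strand of the gene, from RefSeq on GRCm38.p6, with core matches on either strand in capitals (Ldha chr7:46845554-46845803, plus strand; Hk2 chr6:82774455-82774704, Tpi1 chr6:124814159-124814408 and Gpi1 chr7:34230337-34230586, minus strand). The deposited counts were made on another build, mm9, and the entries were matched by symbol.
Ldha: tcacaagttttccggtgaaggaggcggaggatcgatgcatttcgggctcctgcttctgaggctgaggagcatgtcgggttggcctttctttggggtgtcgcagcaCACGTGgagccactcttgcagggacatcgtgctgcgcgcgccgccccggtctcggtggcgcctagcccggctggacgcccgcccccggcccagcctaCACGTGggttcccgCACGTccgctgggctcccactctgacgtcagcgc
Hk2: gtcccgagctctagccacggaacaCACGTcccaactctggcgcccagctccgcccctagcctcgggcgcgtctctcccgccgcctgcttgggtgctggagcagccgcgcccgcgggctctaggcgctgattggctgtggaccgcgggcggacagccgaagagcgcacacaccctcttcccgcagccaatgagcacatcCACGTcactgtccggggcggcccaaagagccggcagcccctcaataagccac
Tpi1: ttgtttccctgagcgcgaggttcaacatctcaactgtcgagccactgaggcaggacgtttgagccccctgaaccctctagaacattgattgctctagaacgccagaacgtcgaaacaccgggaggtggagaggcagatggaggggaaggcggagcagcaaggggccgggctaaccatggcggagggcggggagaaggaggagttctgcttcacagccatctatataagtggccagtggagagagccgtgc
Gpi1: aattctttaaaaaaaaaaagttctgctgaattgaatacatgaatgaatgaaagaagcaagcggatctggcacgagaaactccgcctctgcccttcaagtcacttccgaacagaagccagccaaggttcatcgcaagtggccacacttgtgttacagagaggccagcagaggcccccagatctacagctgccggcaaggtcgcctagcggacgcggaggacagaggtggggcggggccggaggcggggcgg
The first entry of Ldha held 2 E-boxes, at 145 and 48 bases before the start, and another core at 34 bases. Hk2 held 2 cores, at 226 and 52 bases before the start, and no E-box. Tpi1, which rose, and Gpi1, which was not called, held none. Eno1, also not called in T cells and not shown, held 1, 2 and 2 cores in its entries. Of the 10 genes, 8 had a core match in at least 1 of their entries (12 of 15 entries), and 1, Ldha, had an E-box. Of all 32851 promoter stretches of the same length 38.6% held a core and 6.02% an E-box. A match is a description of the letters and not of binding.

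Side by side over the 16 comparisons, the list of genes that passed was not the same in each cell type or at each time. A gene that passed in 1 comparison and not in another need not differ between them. In the time course Aldoa and Tpi1 were called against non-immunized DC at 12 h and not at 24 h. Neither was called for 24 h against 12 h. Aldoa was called in 3 of the DC comparisons, Tpi1 in 2 and Eno1 in 3, and Tpi1, Hk2 and Ldha in the T cell comparison. Whether T cells differ from DC in these responses was not tested, since the T cell table was normalized apart from the DC tables.

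**Figure D5:**
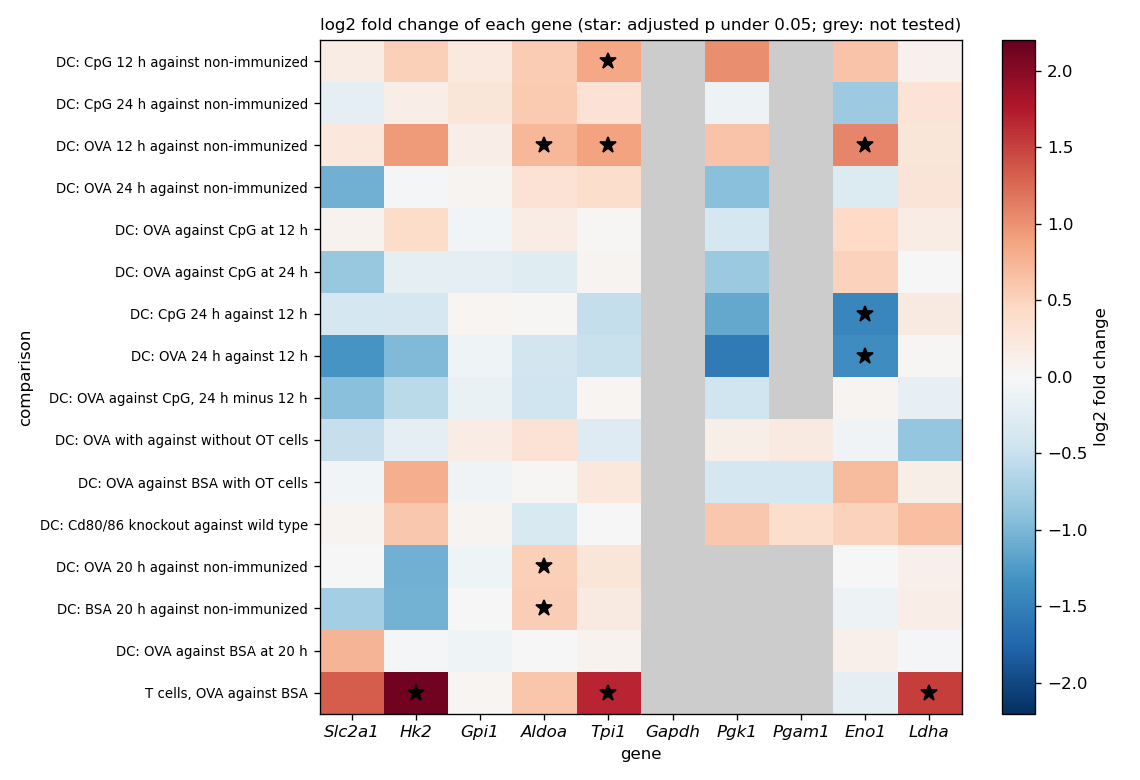
Log2 fold change of each of the 10 genes (columns) in each of the 16 comparisons (rows), on a colour scale from blue (lower) to red (higher). A star marks an adjusted p under 0.05 and grey a gene that did not pass the filter on low values; Hk2, Tpi1 and Ldha carry a star in the T cell row, at 2.12, 1.67 and 1.53.

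How far the 10 genes varied together is given as a description of the libraries. Over the 45 pairs of genes, Pearson's r across libraries had a median of 0.66 in the 6 T cell libraries, with 36 pairs positive. In DC it was 0.19 over 10 libraries of the time course, 0.05 over 8 of the costimulation experiment and 0.13 over 15 of the 5-replicate experiment, with 34, 25 and 32 pairs positive. The points share their groups, depth and cell mix, and the difference was not tested. The gene outside the 10 most like their mean over the 3 DC experiments was Hsp90b1, an endoplasmic reticulum chaperone gene, with a smallest r of 0.72 among 5316 candidates, followed by Tirap (0.65), Cct5 (0.65), Fh1 (0.62), Mrpl52 (0.61) and Sdf2l1 (0.61). In T cells the 6 most alike were Rpl29, Wdr61, Psma4, Smu1, Emc6 and Ndufb7, with r from 0.992 to 0.997 among 4157 candidates over 6 libraries.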

How the data were processed

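The submitters' processing notes name bcl2fastq, HISAT 0.1.6, HOMER and the mm9 build; strand and the treatment of reads with several matches are not given in the sources used here. The authors deposited raw counts for DC. The T cell table holds normalized signal that the authors deposited as counts divided by a size factor: 100% of values were whole reads within 0.01 once multiplied back. Per the file headers the tables also give log2 fold changes, each with an adjusted p-value that the authors deposited; neither was used for the results. In the table of the 5-replicate experiment 2 libraries (4 columns) match no sample and were not used.

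DC counts were tested with edgeR 4.0.16 (quasi-likelihood, TMM, filterByExpr, all libraries of an experiment in 1 fit, Benjamini-Hochberg over all genes tested, called under 0.05). The edgeR test was to be used for T cells had the table held raw counts. Since it holds normalized values, limma 3.58.1 (trend) was fitted to log2(normalized count + 1) of the genes that reached 10 in 3 libraries. Errors of fold changes are standard errors. Every fit ran on the whole table. On simulated data only the main fit was tried, for the first comparison of each experiment. Other tools were DESeq2 1.42.0, BLAST 2.17.0 and, on R 4.3.3 and Python 3.11.15, numpy 2.4.6, pandas 2.3.3 and matplotlib 3.10.9.

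The alternatives were DESeq2, its size factors in edgeR, no filter on low values, other pseudocounts, count tests on the recovered reads of T cells, a replicate block, each library left out in turn and, chosen after seeing the data, a term for Y-linked transcripts. All 10 genes are named in every experiment. From the other lists (glycolysis enzymes, transporters, regulators, hypoxia-responsive, pentose phosphate, citrate cycle, gluconeogenesis and cell cycle genes, and markers of 8 cell types) called genes were counted and up to 4 with the smallest adjusted p were named in a comparison. Not every list is given above for every comparison. The 6 genes most alike were taken by Pearson's r with the mean of the standardized 10 genes, among genes averaging 20 CPM or normalized counts or more. The 10 genes, the lists and the tests were chosen with earlier results of these data known. Depth was 155088 to 2052904 counts a library, and a level from a few counts is imprecise. Promoters came from RefSeq (GRCm38.p6) and were matched by symbol, 10 of 10 genes.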

Additional observations from a re-analysis of the deposited data

Results flagged for a closer look

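Each of the 10 genes was examined in the 3 groups with 5 libraries for a highest or lowest library far from the rest of its group, 30 groups in all, of which chance flags about 1 in 20. Slc2a1 in the third non-immunized library of the 5-replicate experiment was at 32.68 CPM, the highest of 5 libraries that otherwise lay between 3.04 and 9.85 CPM, and the gap made up 0.77 of the group's range. That library was the shallowest of the experiment, with 367209 counts in all and 12 of Slc2a1. Ldha in the first OVA library of the same experiment was at 194.1 CPM, above 4 libraries that lay between 119.9 and 138 CPM, with a gap of 0.758 of the range. The cause of either was not tested.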

How the results depend on the processing

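Over 16 comparisons the count of the 10 genes called was recomputed 157 times; it stayed within 1.5 times in 129 and moved in 28. No fold change of a called gene reversed in 111 values, and 33 lost the call. DESeq2 called 0 genes (in place of 1) at 12 h after CpG and 1 (in place of 3) at 12 h after OVA and CpG, against non-immunized DC. Without the filter on low counts 2 genes were called for OVA and CpG at 24 h against 12 h, Slc2a1 being added, and 2 at 20 h after OVA, Hk2 being added. With the term for Y-linked transcripts 0 were called at 20 h after BSA. Leaving out single libraries gave 0 to 1 genes at 12 h after CpG, 0 to 1 at 24 h after CpG, 0 to 1 at 12 h after OVA and CpG, 0 to 1 for CpG and 0 to 2 for OVA and CpG at 24 h against 12 h, 1 to 2 at 20 h after OVA, 0 to 1 at 20 h after BSA and 2 to 3 in T cells.

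Correlations of same-numbered libraries lay between -0.156 and 0.188. They were over 0.1 in 3 of 9 pairs of the costimulation experiment, 4 of 15 of the 5-replicate experiment, 2 of 20 of the time course and 0 of 3 of the T cells. These values do not settle whether the libraries pair. With the replicate block 2 genes were called at 12 h after CpG and 1 at 24 h after CpG, Aldoa being added in both, 1 for OVA with against without OT cells, Ldha, and 2 in T cells, where Hk2 had an adjusted p of 0.0566 in limma.

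Counts over all genes moved by more than 1.5 times under DESeq2 for CpG at 12 h (1535 against 1014) and OVA and CpG at 12 h (1282 against 794) and for 24 h against 12 h after CpG (719 against 443) and after OVA and CpG (839 against 519). For OVA with against without OT cells they were 243, 696 with the block and 917 without the filter, and at 20 h after BSA 499 and 187 with the Y-linked term. Depth limits Gapdh, Pgam1 and Pgk1 most, and differences in them were not detectable in most experiments.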
